A study of Rattus norvegicus with 12 samples.

Results

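The genes described here are 10 lysosomal genes of the rat lumbar spinal cord, taken by gene symbol from a table of 23526 genes. They are the cysteine cathepsins Ctsb, Ctsl, Ctss, Ctsz and Ctsk, the aspartic cathepsin Ctsd, the asparaginyl endopeptidase Lgmn, and the membrane proteins Lamp1, Lamp2 and Cd63. Each symbol stood in the table once. Bulk RNA sequencing was done on cord tissue from segments L3 to L5 of Rattus norvegicus, and the 12 libraries form 4 groups of 3. The groups are spinal cord injury (SCI) at day 3, SCI at day 7, SCI at day 14, and sham, which the labels place at day 0. The labels give no strain, sex, age, injury level or method, and do not say whether the libraries came from separate rats, so the p-values measure the spread between these libraries, which may in part be technical. The only sham libraries are those labelled day 0, so days since surgery and injury cannot be told apart. All comparisons with sham use the same 3 sham libraries.

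Lysosomes are acidic organelles in which proteases, glycosidases and lipases break down material taken up by endocytosis, phagocytosis or autophagy. Cathepsins are made as inactive precursors, reach the lysosome through the mannose 6-phosphate sorting pathway and are activated in its acidic lumen, while heavily glycosylated proteins of the LAMP family line its membrane. Most of these genes are used by many cell types of the cord, and phagocytic microglia and macrophages are rich in cathepsins and in the tetraspanin CD63. Many lysosomal genes carry a short palindrome in their promoters that is bound by the transcription factor TFEB and its relatives, and myeloid genes often carry a site for PU.1, the product of Spi1.

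RefSeq promoters of the GRCr8 rat assembly were matched for 9 of the 10 members, with none printed for Ctsb, and the 250 bases before each gene's start were searched on both strands. The E-box core CACGTG was found in 3 of these 9 windows (Ctsd, Lamp1 and Cd63), against 5.59% of the 33469 rat promoters of the same length. The longer GTCACGTG, which contains the E-box core and is part of the TFEB palindrome, was found in Ctsd and Lamp1, against 1.63% of all promoters. The PU.1 core GAGGAAGT was found in Ctss, against 2.04%, and the AP-1 motif TGANTCA in Cd63, against 6.34%. Windows of the 4 genes with a match are printed here so that the motifs can be seen in place. The remaining 5 windows held none of the 4 motifs. Capitals mark the motifs as they read on the strand of the gene, so GTCACGTG can appear as CACGTGAC and GAGGAAGT as ACTTCCTC. A match is a description of these letters and was not tested as a binding site.
Lamp1, GRCr8 chr16:83075064-83075313, minus strand: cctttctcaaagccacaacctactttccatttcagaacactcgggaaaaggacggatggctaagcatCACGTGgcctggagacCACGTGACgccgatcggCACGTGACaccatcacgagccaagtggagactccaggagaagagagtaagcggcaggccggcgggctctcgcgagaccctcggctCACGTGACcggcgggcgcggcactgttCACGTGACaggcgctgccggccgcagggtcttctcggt
Ctsd, GRCr8 chr1:206968822-206969071, minus strand: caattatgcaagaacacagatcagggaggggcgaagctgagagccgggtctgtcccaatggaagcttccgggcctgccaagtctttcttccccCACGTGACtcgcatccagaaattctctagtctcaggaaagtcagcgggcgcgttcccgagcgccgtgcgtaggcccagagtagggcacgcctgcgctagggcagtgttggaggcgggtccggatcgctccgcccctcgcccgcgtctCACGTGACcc
Ctss, GRCr8 chr2:185775146-185775395, plus strand: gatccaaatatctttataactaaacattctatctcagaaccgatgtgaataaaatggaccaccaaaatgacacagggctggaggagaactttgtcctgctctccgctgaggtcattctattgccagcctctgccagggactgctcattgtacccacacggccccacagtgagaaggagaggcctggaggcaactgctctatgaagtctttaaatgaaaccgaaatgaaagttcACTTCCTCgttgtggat
Cd63, GRCr8 chr7:1921894-1922143, plus strand: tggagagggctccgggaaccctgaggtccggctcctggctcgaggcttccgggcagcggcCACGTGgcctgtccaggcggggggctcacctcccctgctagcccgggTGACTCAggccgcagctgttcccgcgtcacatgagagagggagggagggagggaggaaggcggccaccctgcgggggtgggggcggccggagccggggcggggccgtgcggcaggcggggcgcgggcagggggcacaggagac

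In the Lamp1 window CACGTG began 183, 167, 150, 65 and 38 bases before the start, and all but the match at 183 were part of GTCACGTG. In Ctsd the longer motif lay 157 and 10 bases before the start. The PU.1 core of Ctss lay 17 bases before its start, and in Cd63 the E-box core lay at 190 and the AP-1 motif at 143.

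Levels are given in CPM, the gene's read count divided by the library's total and multiplied by 1e6. Totals ran from 63010295 to 79072710 counted reads, so counting error is small beside the spread between libraries. Differences are log2 fold changes of an SCI day over sham from edgeR's quasi-likelihood test on all 18714 genes that passed a filter on low counts, with the standard error (SE), and a gene is said to have risen or fallen where its p-value, adjusted over all these genes by the Benjamini-Hochberg method, was under 0.05. All 10 members passed the filter. Before the results, several libraries must be set apart. At day 3, replicates 1 and 3 held 557 and 426 CPM summed over 13 neuronal marker genes, against 7916 to 10785 CPM in sham, and Slc12a5, the neuronal chloride transporter KCC2, was at 33.2 and 30.3 CPM, against 456 to 599 CPM in sham. The share of counts from mitochondrial genes was also low in these libraries, at 5.62% and 5.43%, against 8.004% to 9.80% in sham and 10.2% in day 3 replicate 2, and its part in the day 3 results was not tested. Transcripts of sensory ganglion neurons were present in day 3 replicate 2 and day 14 replicates 1 and 2, where the sodium channel gene Scn10a was at 19.9, 78.8 and 131 CPM, against 0.155 to 0.476 CPM in sham. Sham replicate 2 held 50409 CPM summed over 10 Schwann cell markers, against 7224 and 8511 CPM in the other sham libraries. In bulk tissue, fewer or more cells of a type and less or more RNA per cell cannot be told apart.

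All 10 members had their lowest group mean in sham, and fitted differences from sham were positive for all 10 on each day, although that of Lamp1 at day 3, 0.00, was slightly negative by DESeq2, with its size factors and under both other filters. The median log2 fold change of the members was 1.23 at day 3, 1.03 at day 7 and 1.04 at day 14, beside medians of 0.03, -0.02 and 0.01 over all tested genes. At day 3, 2 members rose and none fell, Ctsb and Cd63, where 6.70% of all genes were called, 5.50% as higher. The unadjusted p was under 0.05 for 7 members at day 3, against 35.3% of all genes. At day 7 no member was called, where 3 genes or 0.0160% of all were, and 4 had an unadjusted p under 0.05, against 9.89% of all genes. At day 14 no member was called, again where 0.0160% of all genes were, and 5 had an unadjusted p under 0.05, against 7.40% of all. DESeq2 called 5 members at day 3, where it called 27.2% of all genes, 2 at day 7, where it called 2.73%, and 0 at day 14, where it called 1.10%. Without overlap between libraries, 7 members were higher at day 3 (21.2% of all genes were higher in this way), 7 at day 7 (13.9% of all) and 3 at day 14 (11.0% of all).

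**Figure D1:**
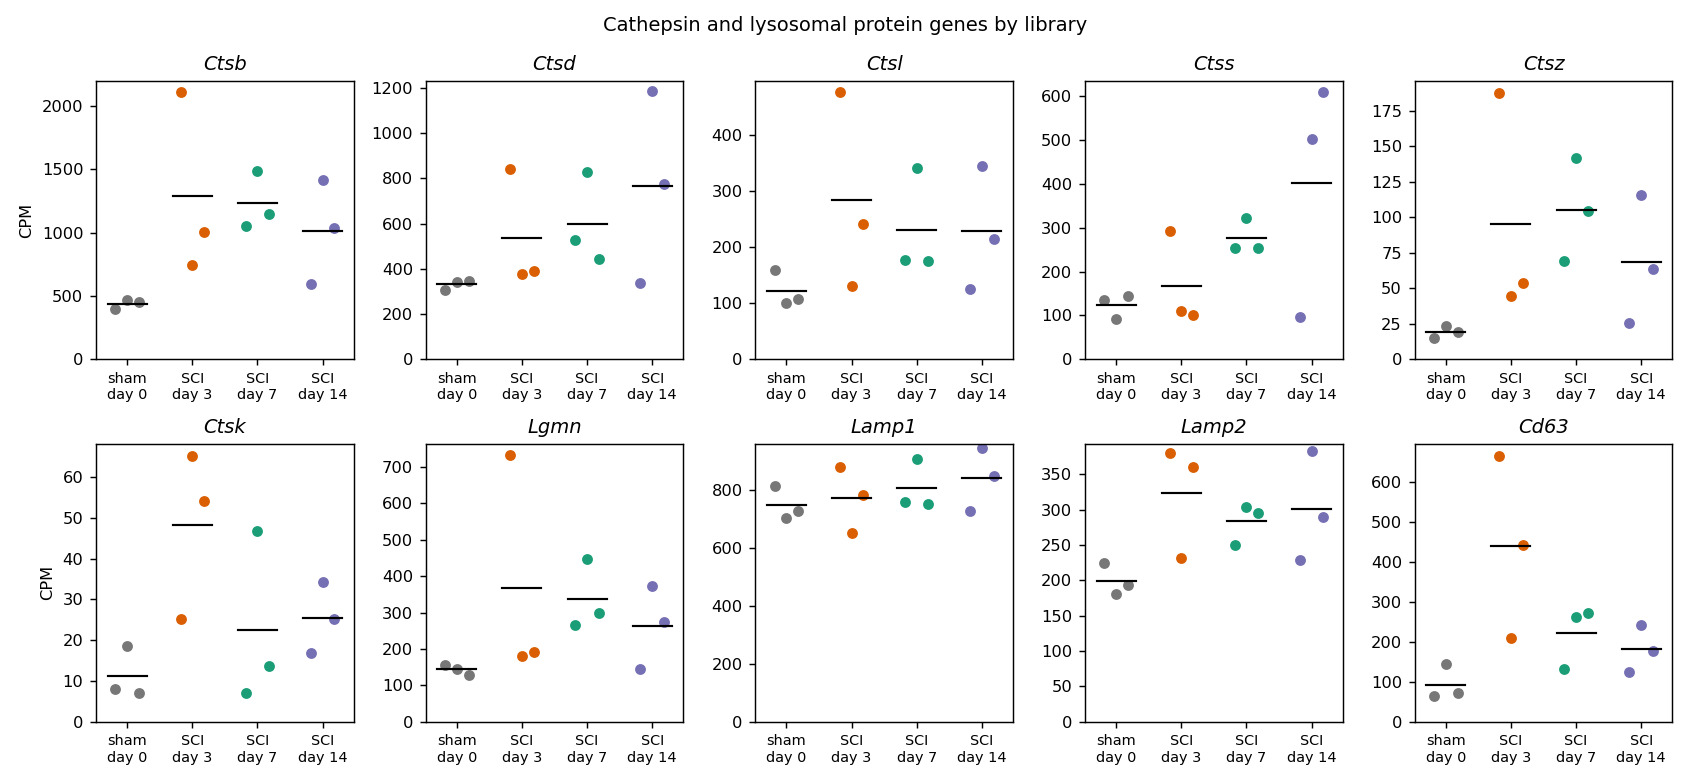
Level of each of the 10 genes in CPM (vertical axis, linear, from 0) in the 3 libraries of sham (day 0) and of SCI days 3, 7 and 14. Each point is 1 library and each bar the group mean; Lamp1 is nearly level, at 652 to 944 CPM over all 12 libraries, while Ctsb ran from 398 to 2113 CPM.

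Cathepsin B, the product of Ctsb (ENSRNOG00000010331, chromosome 15), is a cysteine protease with both endopeptidase and dipeptide-releasing activity, and one of the most abundant lysosomal proteases. Ctsb had 2113, 741 and 1006 CPM at day 3, against 398, 466 and 453 CPM in sham. It had 1055, 1485 and 1149 CPM at day 7 and 595, 1416 and 1037 CPM at day 14. All 9 SCI libraries were above the highest sham library, and the lowest of them was replicate 1 of day 14. Ctsb rose at day 3 by 1.50 on the log2 scale (SE 0.39, adjusted p = 0.0473 by edgeR), a fold of 2.84 with a 95% interval of 1.57 to 5.14. Its difference from sham was 1.44 at day 7 (SE 0.39, edgeR adjusted p = 0.269) and 1.17 at day 14 (SE 0.38, edgeR adjusted p = 0.594). The day 3 call was lost in 11 of the 12 fits that left out 1 library, the exception being day 3 replicate 2, and without replicate 1 of day 3 the log2 difference was 0.99 (edgeR adjusted p = 0.140).

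Ctsz (ENSRNOG00000050697, chromosome 3) encodes cathepsin Z, also called cathepsin X, a carboxypeptidase that is prominent in immune cells. Ctsz had 187, 44.7 and 53.8 CPM at day 3, against 15.1, 23.6 and 18.7 CPM in sham. It had 69.2, 141 and 104 CPM at day 7 and 25.6, 115 and 63.3 CPM at day 14. As with Ctsb, all 9 SCI libraries were above all sham libraries, and day 14 replicate 1 came closest to them. Its fitted log2 difference was the largest of the members on each day, 2.26 at day 3 (SE 0.62, edgeR adjusted p = 0.0526), 2.41 at day 7 (SE 0.62, adjusted p = 0.251) and 1.79 at day 14 (SE 0.61, adjusted p = 0.594), but none passed the threshold. At day 7, DESeq2, limma and the edgeR fit on the day 7 and sham libraries alone each called 2 members, Ctsb and Ctsz, and of all genes these fits called 2.73%, 1.47% and 0.499%.

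Cathepsin L, encoded by Ctsl (ENSRNOG00000018566, chromosome 17), is a broad endopeptidase that also processes other lysosomal enzymes. Ctsl had 478, 131 and 242 CPM at day 3, against 158, 101 and 108 CPM in sham. It had 178, 341 and 175 CPM at day 7 and 125, 345 and 214 CPM at day 14. Day 3 replicate 2 and day 14 replicate 1 lay inside the sham range, and the groups did not overlap at day 7 alone. The log2 differences were 1.16, 0.86 and 0.85 at days 3, 7 and 14, with edgeR adjusted p of 0.123, 0.618 and 0.788.

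Cathepsin S, encoded by Ctss (ENSRNOG00000021157, chromosome 2), is a protease of microglia and other antigen-presenting cells that trims the invariant chain of MHC class II and, unlike most cathepsins, stays active at neutral pH. Ctss had 292, 110 and 99.7 CPM at day 3, against 135, 92.5 and 143 CPM in sham. It had 254, 321 and 254 CPM at day 7 and 96.4, 502 and 609 CPM at day 14. At day 3 only replicate 1 was above sham, at day 7 all libraries were, and at day 14 the levels of replicates 2 and 3 were the highest of the 12 while replicate 1 lay inside the sham range. The log2 difference from sham was 0.38 at day 3 (SE 0.57, edgeR adjusted p = 0.658), 1.11 at day 7 (SE 0.58, adjusted p = 0.579) and 1.65 at day 14 (SE 0.58, adjusted p = 0.611). Between day 14 and day 3 the difference of Ctss was 1.27 (SE 0.58, edgeR adjusted p = 0.282), which did not pass.

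Ctsk (ENSRNOG00000021155) lies on the same strand of chromosome 2 as Ctss, 16886 bases away in the deposited annotation with no other table gene between them. Cathepsin K is a collagen-cleaving protease best known from osteoclasts and also made by activated fibroblasts. Ctsk had 25.3, 65.2 and 54.0 CPM at day 3, against 8.13, 18.5 and 7.02 CPM in sham. It had 6.93, 46.8 and 13.8 CPM at day 7 and 16.9, 34.1 and 25.1 CPM at day 14. Its order over libraries was unlike that of its neighbour, since its highest level was in day 3 replicate 2, where Ctss was inside the sham range, and its groups overlapped at days 7 and 14. The log2 difference was 2.08 at day 3 (SE 0.67, edgeR adjusted p = 0.0708), 0.94 at day 7 (adjusted p = 0.686) and 1.15 at day 14 (adjusted p = 0.784). Over the 12 libraries the Pearson correlation of Ctss and Ctsk on log2(CPM + 1) was 0.07, the lowest of the 45 pairs of members.

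Cathepsin D, the product of Ctsd (ENSRNOG00000020206, chromosome 1), is the main aspartic protease of the lysosome. Ctsd had 841, 376 and 390 CPM at day 3, against 307, 342 and 346 CPM in sham. It had 527, 827 and 445 CPM at day 7 and 336, 1187 and 773 CPM at day 14. All libraries of days 3 and 7 were above sham, replicates 2 and 3 of day 3 by little, and replicate 1 of day 14 lay inside the sham range. The group mean was highest at day 14, at 765 ± 426 CPM (SD, n = 3), with log2 differences of 0.64, 0.80 and 1.16 at days 3, 7 and 14 and edgeR adjusted p of 0.304, 0.595 and 0.618.

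Legumain, encoded by Lgmn (ENSRNOG00000007089, chromosome 6), cuts after asparagine and converts the single-chain forms of several cathepsins to their double-chain forms. Lgmn had 734, 181 and 191 CPM at day 3, against 157, 145 and 130 CPM in sham. It had 265, 448 and 300 CPM at day 7 and 145, 372 and 275 CPM at day 14. Replicate 1 of day 3 was about 4 times as high as the other day 3 libraries, which were just above sham, and replicate 1 of day 14 lay inside the sham range. The log2 differences were 1.30, 1.18 and 0.83, with edgeR adjusted p of 0.107, 0.490 and 0.813.

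Cd63 (ENSRNOG00000007650, chromosome 7) encodes a tetraspanin of late endosomes, lysosomes and exosomes. Cd63 had 666, 209 and 442 CPM at day 3, against 63.5, 144 and 72.0 CPM in sham. It had 133, 261 and 272 CPM at day 7 and 124, 242 and 177 CPM at day 14. All day 3 libraries were above sham, while replicate 1 of day 7 and replicate 1 of day 14 were below sham replicate 2, the highest of the sham libraries. Cd63 rose at day 3 by 2.20 on the log2 scale (SE 0.47, adjusted p = 0.0369 by edgeR), a fold of 4.61 with a 95% interval of 2.23 to 9.52. The difference was 1.21 at day 7 (SE 0.46, edgeR adjusted p = 0.423) and 0.93 at day 14 (SE 0.46, edgeR adjusted p = 0.701). Among members, Cd63 had the largest negative difference between SCI days, -1.28 at day 14 against day 3 (SE 0.46), but its edgeR adjusted p was 0.225, where 0.00% of all genes were called between these days. Without day 3 replicate 2 the call at day 3 held (2.54, edgeR adjusted p = 0.00198). The Cd63 call was lost without sham replicate 1 or 3, day 3 replicate 1 or 3, day 7 replicate 2 or day 14 replicate 3, with log2 differences of 1.81 to 2.20 and edgeR adjusted p of 0.0574 to 0.164.

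LAMP1 and LAMP2 are the main glycoproteins of the lysosomal membrane, and a splice form of LAMP2 serves as the receptor of chaperone-mediated autophagy. Lamp2 (ENSRNOG00000000164, chromosome X) had 380, 231 and 360 CPM at day 3, against 224, 180 and 194 CPM in sham. It had 250, 304 and 295 CPM at day 7 and 229, 383 and 289 CPM at day 14. All 9 SCI libraries were above the highest sham library, replicate 2 of day 3 and replicate 1 of day 14 by little. The log2 differences of Lamp2 were 0.66 (SE 0.23, edgeR adjusted p = 0.0865), 0.46 (SE 0.23, 0.571) and 0.55 (SE 0.23, 0.652) at days 3, 7 and 14, and none passed. The table sums all transcripts of the gene, so splice forms were not told apart.

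Lamp1 (ENSRNOG00000019629, chromosome 16) had 878, 652 and 781 CPM at day 3, against 814, 704 and 728 CPM in sham. It had 756, 906 and 752 CPM at day 7 and 728, 944 and 849 CPM at day 14. The groups overlapped on each day, and the highest and lowest of all 12 libraries differed by a factor of 1.45, against factors of 2.13 for Lamp2 and 12.4 for Ctsz. The log2 difference of Lamp1 was 0.00 at day 3 (SE 0.17, edgeR adjusted p = 0.995), 0.06 at day 7 (adjusted p = 0.933) and 0.12 at day 14 (adjusted p = 0.904). The 95% interval of the day 3 difference was -0.38 to 0.38, or 0.771-fold to 1.30-fold, so a change of Lamp1 by that much in either direction was within its error.

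**Figure D2:**
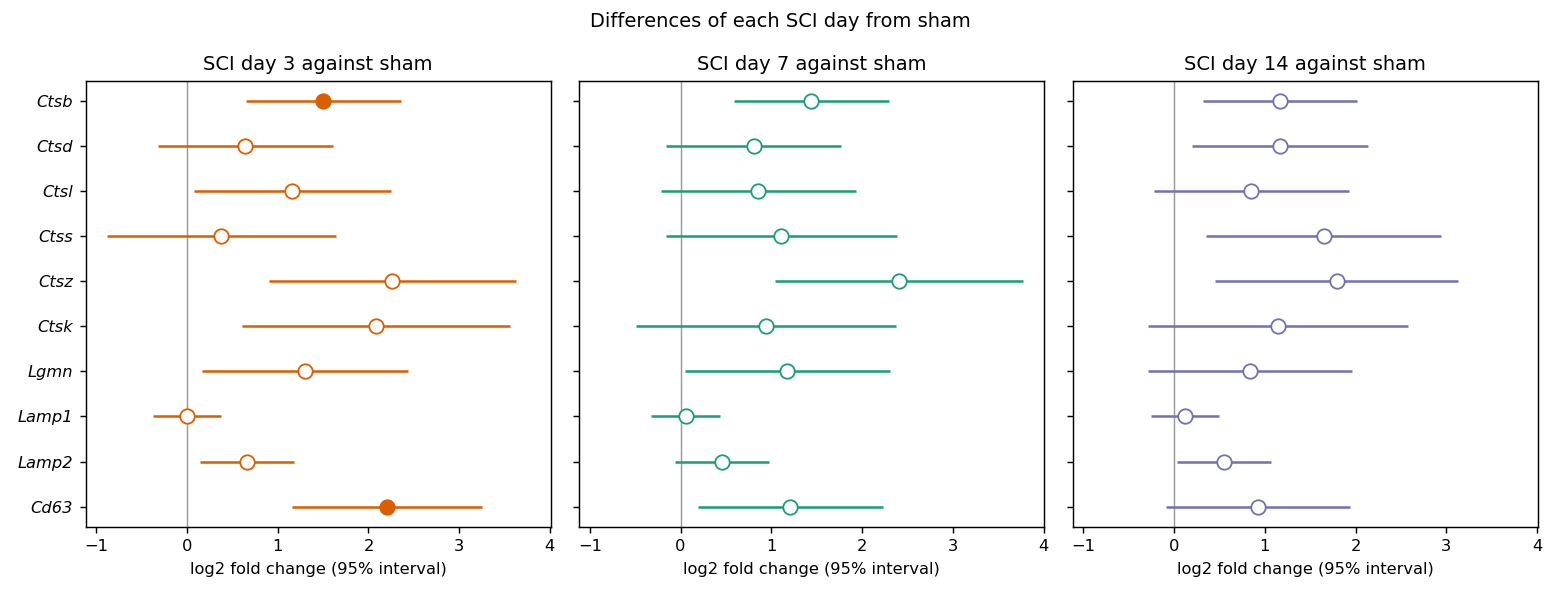
Fitted log2 fold change of each gene against sham at days 3, 7 and 14 (horizontal axis), with its 95% interval as a line; filled points have an edgeR adjusted p under 0.05. Filled points are Ctsb (1.50) and Cd63 (2.20) at day 3, and Lamp1 lies at 0.00, 0.06 and 0.12.

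Averaged over the 3 SCI days, the difference from sham was positive for all 10 members and passed for none, where 9 genes or 0.0481% of all were called. The lowest adjusted p of the members was that of Ctsb, at 0.142 by edgeR, with a log2 difference of 1.37 (SE 0.34). An unadjusted p under 0.05 was found for 8 members, all but Ctss and Lamp1, against 19.1% of all genes. Ctsb, Ctsz and Lamp2 were above sham in all 9 SCI libraries, a pattern that 4.37% of all genes showed. DESeq2 called 3 members in this comparison, Ctsb, Ctsz and Cd63, and 7.93% of all genes. Between SCI days edgeR called no member, and 0.00% of all genes, at day 7 against day 3, day 14 against day 3 and day 14 against day 7. DESeq2 also called no member in these comparisons, and 1.32%, 5.46% and 0.269% of all genes. Member differences ran from -1.14 (Ctsk) to 0.73 (Ctss) at day 7 against day 3, from -1.28 (Cd63) to 1.27 (Ctss) at day 14 against day 3, and from -0.61 (Ctsz) to 0.54 (Ctss) at day 14 against day 7. Before adjustment 14.8%, 17.9% and 3.67% of all genes were under 0.05 in these comparisons by edgeR, and among members Cd63 alone was, at day 14 against day 3. Group means were highest at day 3 for 6 members, at day 7 for Ctsz, and at day 14 for Ctsd, Ctss and Lamp1.

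Levels of different genes were compared per transcript length, in FPKM (fragments scaled to transcript length and library total) as deposited. Ctsb was first on each SCI day. It averaged 667 ± 376 FPKM at day 3, against 227 ± 18.9 FPKM in sham (SD over 3 libraries, as for all FPKM means here), 636 ± 118 FPKM at day 7 and 526 ± 214 FPKM at day 14. In sham Lamp1 stood beside it at 235 ± 17.9 FPKM, and the libraries of these genes overlapped. At day 7 the Ctsb libraries were all above those of Ctsd, next at 270 ± 91.1 FPKM, whereas at days 3 and 14 the ranges of neighbours in this upper part of the order overlapped. Cd63 was second at day 3, at 319 ± 165 FPKM, and sixth in sham, at 67.7 ± 32.1 FPKM. Ctss was seventh at day 3, at 99.7 ± 64.3 FPKM, and stood in place 4 at day 7, day 14 and in sham. Ctsz, Ctsk and Lamp2 were the lowest of the members in each group, with Ctsz at 34.2 ± 28.6 FPKM at day 3, against 6.87 ± 1.54 FPKM in sham.

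The 7 proteases together had 2276, 822 and 1002 FPKM at day 3, against 574, 582 and 593 FPKM in sham, and 1161, 1768 and 1203 FPKM at day 7. At day 14 they had 654, 1951 and 1509 FPKM. The sham libraries were within 20 FPKM of each other, and every SCI library was above them. Ctsb made up 49.0% ± 2.74 of this sum at day 3, against 39.0% ± 2.85 in sham (SD of 3 libraries), 46.6% ± 2.90 at day 7 and 40.1% ± 6.01 at day 14. Ctsd made up 18.3% ± 2.14 at day 3, against 25.6% ± 1.36 in sham, and 19.4% ± 2.42 at day 7 and 24.5% ± 2.53 at day 14. For Ctss the share was 7.19% ± 1.11 at day 3, against 12.6% ± 2.72 in sham, and 12.1% ± 1.14 at day 7 and 16.0% ± 7.70 at day 14. Thus at day 3 Ctsb had a larger and Ctsd and Ctss a smaller share than in sham, with no overlap between the libraries of these groups. Ctsz also had a larger share without overlap at day 3, at 1.93% to 2.95%, against 0.943% to 1.46% in sham. At day 7 the shares of Ctsb and Ctsz were again larger and that of Ctsd smaller without overlap, while that of Ctss overlapped sham. These shares sum to the whole in each library, so they do not move independently, and they are descriptions with no test.

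**Figure D3:**
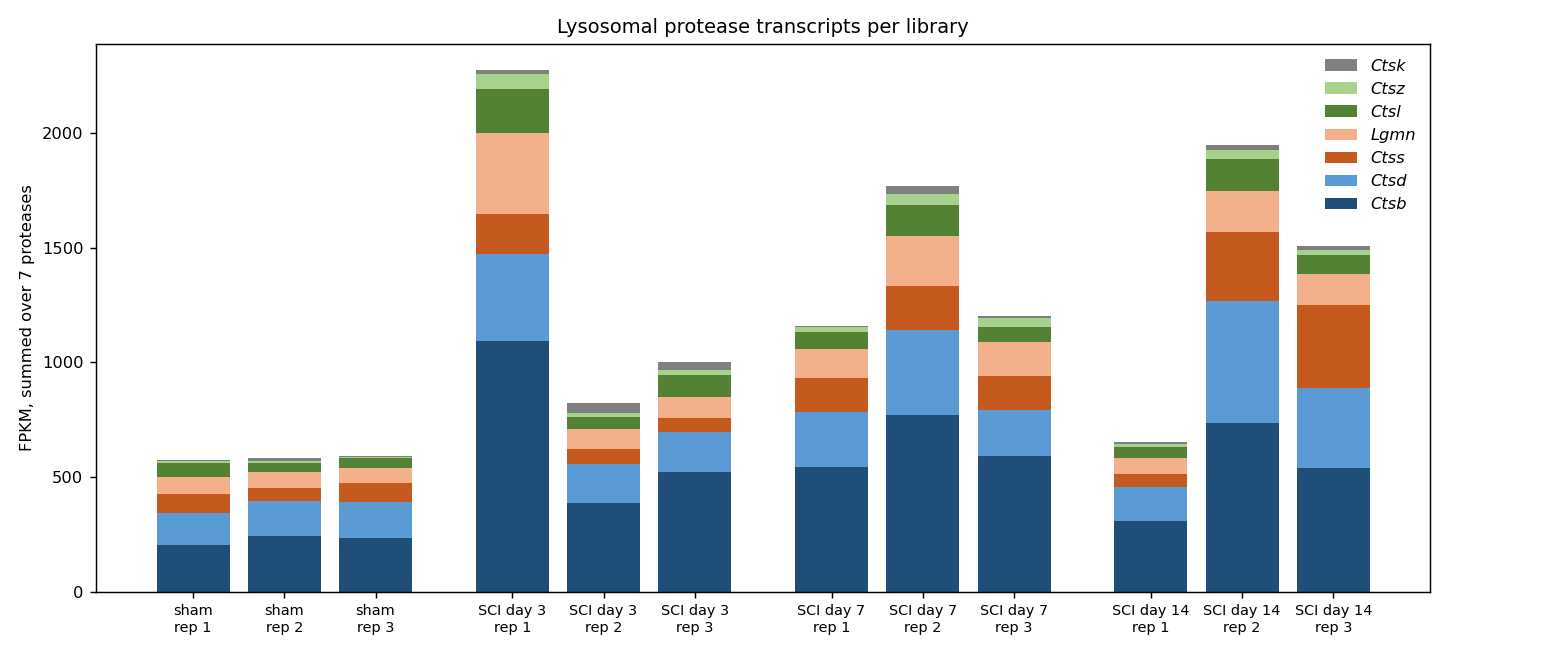
FPKM summed over the 7 protease genes in each of the 12 libraries (vertical axis, linear, from 0), stacked by gene. The sham libraries stand at 574 to 593 FPKM, day 3 replicate 1 at 2276, and day 14 replicate 1 at 654.

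Most members varied together over libraries, and Ctsk did so least. Pairwise Pearson correlations on log2(CPM + 1) over the 12 libraries ran from 0.07 to 0.99 with a median of 0.74 over 45 pairs. Ctsb and Ctsz were the most alike, and the median correlation of Ctsk with the others was 0.43. Some pairs without Ctsk were also low, at 0.28 for Ctss with Cd63 and 0.36 for Lamp1 with Cd63. These are descriptions, since the libraries share groups, depth and tissue make-up. Within groups the spread followed the libraries. At day 3, the members' median log2 difference from the sham mean was 1.67, 0.28 and 0.94 in replicates 1, 2 and 3. The medians were 0.64, 1.55 and 0.82 at day 7 and 0.13, 1.61 and 1.12 at day 14. In day 3 replicate 1, day 7 replicate 2 and day 14 replicates 2 and 3, all 10 members were above the highest sham library, and in day 14 replicate 1 only 3 were.

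Markers of phagocytes were high and low in the same libraries as most members. Summed over 15 of 15 microglia and macrophage markers, the level was 7454, 1440 and 2232 CPM at day 3, against 561, 999 and 680 CPM in sham, 1448, 3182 and 2772 CPM at day 7, and 983, 2968 and 2653 CPM at day 14. None of these markers was at 0 in any group, and the highest and lowest SCI library were those in which the members were also highest and lowest, day 3 replicate 1 and day 14 replicate 1. Of these 15 markers, edgeR called 3 higher at day 3 and none at days 7 and 14. The unadjusted edgeR p was under 0.05 for 14, 12 and 13 at days 3, 7 and 14. DESeq2 called 11, 11 and 7 higher on these days, and 1 lower at day 3, where limma called 10 higher and 1 lower. Of all genes, DESeq2 called 27.2%, 2.73% and 1.10%, and 35.3%, 9.89% and 7.40% had an unadjusted edgeR p under 0.05. Summed over 9 of 10 homeostatic microglia markers, the level was 167 to 625 CPM at day 3, against 186 to 337 CPM in sham, 398 to 1002 CPM at day 7 and 269 to 756 CPM at day 14. In this list 1 marker was at 0 in all libraries of day 7 and 1 in all of sham. Cx3cr1, the fractalkine receptor of microglia, had 143, 32.2 and 28.8 CPM at day 3, against 49.4, 25.6 and 39.9 CPM in sham. In the libraries of day 3, Cx3cr1 was thus above sham in replicate 1 alone, which was also the case for Ctss. Aif1, which encodes the macrophage and microglia protein IBA1, had 22.3, 8.43 and 9.10 CPM at day 3, against 4.37, 5.66 and 5.60 CPM in sham. Summed over 10 of 10 monocyte and border macrophage markers, the level was 157 to 447 CPM at day 3, against 113 to 119 CPM in sham, 136 to 331 CPM at day 7 and 118 to 227 CPM at day 14, with none at 0 in a group. Endothelial markers (8 of 10, none at 0) were also high at day 3. Their sum was 1612, 622 and 1031 CPM at day 3, against 348, 409 and 288 CPM in sham, 548 to 757 CPM at day 7 and 475 to 556 CPM at day 14, and 5 of the 8 rose at day 3. Within day 3 their order over replicates was that of the members' medians, highest in replicate 1 and lowest in replicate 2. Of 10 astrocyte markers (none at 0), 4 fell at day 3. The sum over the 10 was 1829 to 5793 CPM at day 3, against 3176 to 5611 CPM in sham, 9238 to 11652 CPM at day 7 and 3305 to 7420 CPM at day 14. The higher sum at day 7 was not matched by the median of the 10 on log2(CPM + 1). Against the sham mean that median was 0.10, 0.08 and -0.34 in day 7 replicates 1, 2 and 3. The part of all these cells in the members' differences was not tested.

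For Ctsk, markers of bone and connective tissue are given beside its levels. Acp5, the tartrate-resistant acid phosphatase of osteoclasts and some macrophages, was the gene most like Ctsk, and had 4.76, 47.3 and 15.5 CPM at day 3, against 1.38, 4.68 and 1.26 CPM in sham. Summed over 10 of 10 osteoclast and bone markers, the level was 33.4, 97.3 and 37.5 CPM at day 3, against 19.6, 22.7 and 10.7 CPM in sham, and 11.7 to 28.2 CPM at day 7 and 18.9 to 46.8 CPM at day 14. Of these 10 markers DESeq2 called 4 higher at day 3 and limma 2, where they called 27.2% and 33.3% of all genes. Neither tool called any lower at day 3, or any at days 7 and 14. The osteoclast fusion gene Ocstamp was near 0 throughout, at 0.775 CPM or less, with 0.658, 0.775 and 0.243 CPM at day 3, against 0.107 to 0.248 CPM in sham. The fibroblast sum (10 of 10 markers) was 2582 to 6254 CPM at day 3, against 911 to 3493 CPM in sham, 840 to 2890 CPM at day 7 and 2997 to 3491 CPM at day 14, with none at 0. Col1a1, the collagen I chain, had 433, 1173 and 1146 CPM at day 3, against 254, 847 and 171 CPM in sham. In sham, Ctsk, Col1a1 and the fibroblast sum were all highest in replicate 2, and at day 7 all were lowest in replicate 1. On the other days the orders differed. At day 3 Ctsk and Col1a1 were highest in replicate 2, but the fibroblast sum in replicate 3 (6254 CPM). At day 14 Ctsk was highest in replicate 2, but Col1a1 (1199 CPM) and the fibroblast sum (3491 CPM) in replicate 3. The Schwann cell sum (10 of 10 markers) was 16262 to 61512 CPM at day 3, against 7224 to 50409 CPM in sham, 3014 to 22017 CPM at day 7 and 16362 to 29756 CPM at day 14. The part of these cells in the level of Ctsk was not tested.

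**Figure D4:**
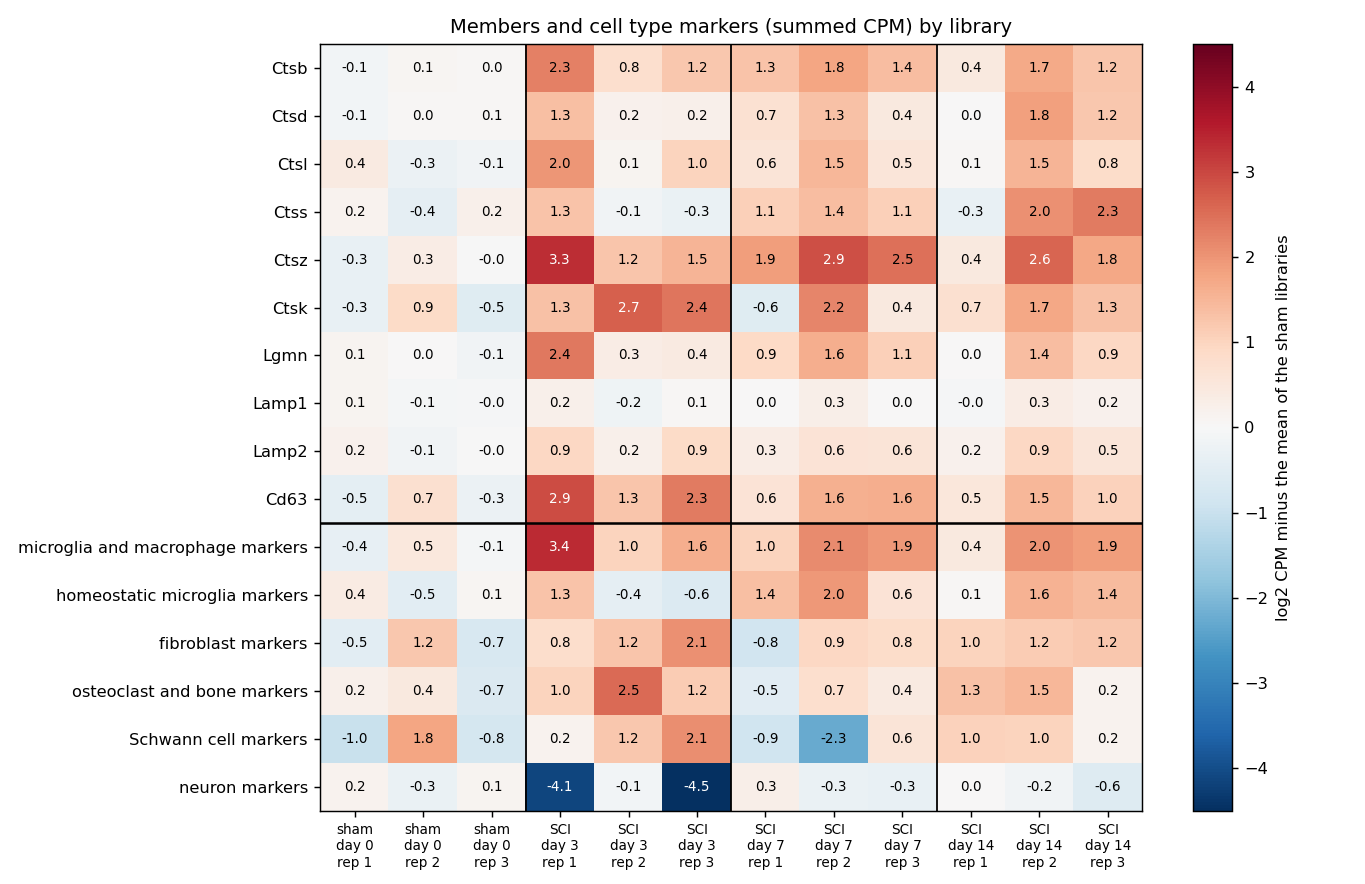
Each cell gives log2 CPM minus the mean log2 CPM of the 3 sham libraries, for the 10 genes (top) and for summed marker lists (bottom), 1 column per library; red is higher and blue lower than sham. Day 3 replicate 1 is 2.3 for Ctsb and 3.4 for the microglia and macrophage markers, and neuron markers are -4.1 and -4.5 in day 3 replicates 1 and 3.

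The day 3 result was checked against the libraries that stand apart. Leaving out the 3 libraries that hold ganglion transcripts keeps only replicates 1 and 3 of day 3, both with few neuronal transcripts. Of day 14 it keeps replicate 3 alone, assumed to vary like the other groups. Without the 3 libraries that hold ganglion transcripts, 6 members were called at day 3, where 34.7% of all genes were, and the log2 differences of Ctsb and Cd63 were 1.78 (edgeR adjusted p = 0.00316) and 2.54 (adjusted p = 0.00410). In that fit 6787 genes were called in all, against 1254 with all libraries. Without the 2 day 3 libraries with few neuronal transcripts, which leaves replicate 2 alone and assumes that it varies like the other groups, no member was called and the log2 differences of Ctsb and Cd63 were 0.71 (edgeR adjusted p = 0.919) and 1.12 (adjusted p = 0.900). In that fit 1 gene or 0.00508% of all was called. The members called at day 3 therefore depended on which libraries were kept.

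For each member, the 3 genes with the most similar log2(CPM + 1) over the 12 libraries were listed among 10215 tested genes with a mean of at least 10 CPM. Ctsb was most like Slc11a1 (r = 0.99), the metal transporter NRAMP1 of phagosomes, then Stxbp2 and Ctsz. Ctsz was most like Fes, Stxbp2 and the leukocyte integrin gene Itgal (each r = 0.99). Ctsd was nearest to Rnaset2, a lysosomal ribonuclease (r = 0.97), Ncf1, a subunit of the phagocyte NADPH oxidase (r = 0.96), and Irf5 (r = 0.95). Ctss shared Ncf1 (r = 0.93) with Ctsd, after Rasa4 and Phyhd1 (each r = 0.94). Lgmn was nearest to Wdfy4 and Nubp2 (r = 0.98 each) and Myo1f (r = 0.98), and Ctsl to Man2a1 (r = 0.96), Rcbtb2 and Olr1 (r = 0.95 each). Ctsk was nearest to Acp5 (r = 0.92), Tulp3 (r = 0.89) and Ccdc8 (r = 0.88). Among the membrane proteins, Lamp1 was nearest to Tgfbr1 (r = 0.94), Pld1 (r = 0.93) and Fam102b (r = 0.92), and Lamp2 to Igfbp3 (r = 0.96), Klf3 and Tes (r = 0.95 each). For Cd63, Clic1 and Rps25 were among the nearest (each r = 0.99). The nearest genes were chosen for their similarity, so these values carry no test.

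The members' positive differences were set beside the rest of the lysosome. Of the 331 table genes annotated to the lysosome by Gene Ontology, all 10 members included, 313 others were tested. At day 3, 16 of these rose and 10 fell by edgeR, and 52 and 51 by DESeq2, and their median difference was 0.03 on the log2 scale, equal to that over all genes at this precision. Of all genes, edgeR called 6.70% and DESeq2 27.2% at day 3. At days 7 and 14 edgeR called none, with 46 under an unadjusted p of 0.05 on each day. DESeq2 called 14 and 7 on these days, and the medians were 0.02 and 0.09. Of all genes, 9.89% and 7.40% were under that p by edgeR at days 7 and 14, and DESeq2 called 2.73% and 1.10%. The median of the 10 members was thus above that of the other lysosomal genes on each day. The members were chosen with results of these data known, and this difference was not tested.

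DESeq2 and limma, which at day 3 called 27.2% and 33.3% of all genes, also called genes in lists where edgeR called none. At day 7 they called 2.73% and 1.47% of all genes, and at day 14 DESeq2 called 1.10%. Over all genes, 35.3%, 9.89% and 7.40% had an edgeR unadjusted p under 0.05 at days 3, 7 and 14. These shares are the background for all the list counts below. Among 12 other lysosomal proteases edgeR called none on any day, with 5, 3 and 2 under an unadjusted p of 0.05 at days 3, 7 and 14. At day 3 DESeq2 called 2 higher and 2 lower and limma 4 higher and 1 lower, and each called 1 higher at day 7. Of the 12, 10, 10 and 11 were positive at days 3, 7 and 14, and the medians were 0.44, 0.51 and 0.58. Nearest to the threshold was Ctsc, the activator of granule serine proteases, with 118, 25.3 and 35.7 CPM at day 3, against 11.2, 18.9 and 8.71 CPM in sham. Its groups did not overlap and its log2 difference at day 3 was 2.15 (SE 0.59, edgeR adjusted p = 0.0529), which passed by DESeq2 (adjusted p = 0.00387) and limma (adjusted p = 0.0108). Cystatins inhibit cysteine cathepsins, and 6 of 10 listed were in the table. Of these, 2 rose at day 3 (Cstb and Kng1) by edgeR, and none was called on the later days, where 2 and 1 had an unadjusted p under 0.05. DESeq2 called 3 higher at day 3, 1 at day 7 and 1 at day 14. Cstb, the cytosolic cathepsin inhibitor cystatin B, had 50.1, 30.6 and 40.0 CPM at day 3, against 17.8, 20.1 and 19.2 CPM in sham, with no overlap and a log2 difference of 1.04 (SE 0.25, edgeR adjusted p = 0.0407). Kng1, a kininogen with cystatin domains, had no count in sham and 1.77, 2.38 and 11.4 CPM at day 3, at least 337-fold higher than the level that 3 counts over the whole sham group would give (edgeR adjusted p = 0.0492). Without day 3 replicate 3 it was at least 135-fold higher by the same measure. Rat kininogen genes are close copies of each other, so reads of Kng1 may have been split between them. The Cstb call held in 3 of the 12 fits that left out 1 library (without day 3 replicate 2, or day 14 replicate 1 or 2), with differences of 0.88 to 1.21 over all 12, and the Kng1 call in 2 (without day 3 replicate 2 or day 7 replicate 3). The median of the 6 cystatins at day 3 was 2.04 as fitted and 1.41 with the 2 genes that had no count in sham set at their bound. A further cystatin was at 1.99 CPM or less in all 12 libraries, so both medians rest on genes near 0. On log2(CPM + 1), the cystatin medians against the sham mean were 0.68, 0.45 and 0.36 in day 3 replicates 1, 2 and 3. Those of the members were 1.66, 0.28 and 0.93 on this scale. Cst3, the secreted cystatin C, had the highest level of the list, at 922 ± 161 CPM at day 3, against 1204 ± 197 CPM in sham (SD, n = 3 each), a log2 difference of -0.42 (SE 0.30, edgeR adjusted p = 0.337). At day 14 Cst3 had 958, 2372 and 2367 CPM, with the other sign (log2 difference 0.61, SE 0.30, edgeR adjusted p = 0.705), and all 6 cystatins were positive, with a median of 0.91.

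For other enzymes of the lumen edgeR made no call. Of 23 glycosidases and sulfatases, 11, 16 and 19 were positive at days 3, 7 and 14, with medians of -0.04, 0.16 and 0.42, and Gaa, the acid alpha-glucosidase, was nearest to the threshold, at 123, 248 and 101 CPM at day 3, against 268, 329 and 374 CPM in sham (log2 difference -1.08, SE 0.31, edgeR adjusted p = 0.0581). Before adjustment 6, 4 and 7 of the 23 were under 0.05 by edgeR on these days, and at day 3 DESeq2 called 1 higher and 3 lower and limma 2 higher and 3 lower, both with Gaa among the lower. Of 20 genes for lipid, nucleic acid and phosphate breakdown, 14, 17 and 17 were positive, with medians of 0.25, 0.36 and 0.45. In that list Ppt1, a palmitoyl-protein thioesterase, came nearest, with 166, 162 and 123 CPM at day 3, against 220, 220 and 254 CPM in sham (log2 difference -0.66, SE 0.18, edgeR adjusted p = 0.0516). Before adjustment 6, 6 and 7 of the 20 were under 0.05 by edgeR. DESeq2 and limma each called 3 higher and 2 lower at day 3, Ppt1 among the lower, and 1 higher at day 7. For both Gaa and Ppt1 all day 3 libraries were below all sham libraries, the opposite of the 7 members above sham without overlap at day 3. The share of all genes below sham in this way is not given here.

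Among 24 other membrane proteins, 1 rose and 2 fell at day 3, with a median of 0.01. This list holds other tetraspanins beside proteins of the lysosomal membrane. At days 7 and 14 edgeR called none, with medians of 0.04 and 0.18 and 7 under an unadjusted p of 0.05 on each. DESeq2 called 5 higher and 2 lower at day 3, 2 higher at day 7 and 1 higher at day 14. Slc11a1, the gene most like Ctsb, rose, with 49.5, 8.34 and 12.2 CPM at day 3, against 3.41, 4.41 and 3.90 CPM in sham (log2 difference 2.52, SE 0.63, edgeR adjusted p = 0.0448). Abca2, a lipid transporter abundant in oligodendrocytes, fell, with 591, 717 and 591 CPM at day 3, against 1451, 968 and 1195 CPM in sham (log2 difference -0.97, SE 0.19, edgeR adjusted p = 0.0338). Tmem175, a lysosomal cation channel, fell by 0.55 on the log2 scale (SE 0.12, edgeR adjusted p = 0.0386), to 28.4 to 33.9 CPM at day 3, against 42.9 to 47.3 CPM in sham. Beside the values of Abca2, the sum over 10 of 10 oligodendrocyte markers was 29955 to 39369 CPM at day 3, against 33056 to 71604 CPM in sham, with 4 markers called lower, and its part was not tested. Of the 12 fits that left out 1 library, the Slc11a1 call held in 1, without day 3 replicate 2, and without day 3 replicate 1 its difference was 1.39 (edgeR adjusted p = 0.132). The Abca2 call held in 6, all but those without sham replicate 1 or 3, day 3 replicate 1 or 3, day 7 replicate 2 or day 14 replicate 3, with differences of -1.12 to -0.79. The Tmem175 call held in 4 (without day 3 replicate 2, day 7 replicate 3, or day 14 replicate 1 or 2), with differences of -0.60 to -0.51.

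Most genes of the proton pump that acidifies the lysosome had fitted differences of the opposite sign, none of them called by edgeR. Of 16 tested subunit and accessory genes of the V-ATPase, 3 were positive on each day, with medians of -0.53, -0.12 and -0.23 at days 3, 7 and 14, and edgeR called none, although 10, 1 and 1 had an unadjusted p under 0.05, against 35.3% of all genes at day 3. At day 3 DESeq2 called 8 of the 16 lower and limma 11, and neither called one higher or any at days 7 and 14. Atp6v0d1, a subunit of the membrane sector, had 175, 223 and 125 CPM at day 3, against 259, 256 and 295 CPM in sham (log2 difference -0.67, SE 0.19, edgeR adjusted p = 0.0549), and was among those called by DESeq2 and limma. Tcirg1, the membrane subunit used by osteoclasts and immune cells, had the other sign, at 53.6 ± 15.5 CPM at day 3, against 38.9 ± 11.8 CPM in sham (SD, n = 3 each; log2 difference 0.42, edgeR adjusted p = 0.270). On log2(CPM + 1), the V-ATPase medians against the sham mean were -0.45, -0.13 and -1.07 in day 3 replicates 1, 2 and 3. In the sham libraries they ran from -0.09 to 0.13, so the difference was small in day 3 replicate 2. The neuronal markers, low in day 3 replicates 1 and 3, were given above, and their part in the V-ATPase values was not tested. Of 15 genes for the sorting of hydrolases, edgeR called none, with 4, 0 and 1 under an unadjusted p of 0.05 at days 3, 7 and 14. At day 3 DESeq2 called 2 lower and limma 2 higher and 2 lower, both with Sort1. Of the 15, 6, 5 and 5 were positive, with medians of -0.03, -0.06 and -0.07. In that list Sort1, the sorting receptor sortilin, was nearest to the threshold, at 304, 318 and 155 CPM at day 3, against 498, 387 and 488 CPM in sham (log2 difference -0.87, SE 0.24, edgeR adjusted p = 0.0553).

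Of 10 regulators of the lysosome edgeR called none on any day, with 4, 2 and 1 under an unadjusted p of 0.05, while DESeq2 called 2 higher at day 3 and 2 at day 7 and limma 3 higher at day 3. The list had medians of 0.25, 0.07 and 0.09. Tfeb had 33.3, 27.1 and 27.1 CPM at day 3, against 32.8, 24.0 and 24.8 CPM in sham, so the groups overlapped and the log2 difference was 0.06 (SE 0.19, edgeR adjusted p = 0.852). Spi1, the gene of the myeloid factor PU.1, had the smallest p of the list, at day 7, with 13.3, 32.0 and 18.6 CPM, against 4.55, 6.49 and 5.33 CPM in sham. Its groups did not overlap and its log2 difference at day 7 was 1.91, with an edgeR adjusted p of 0.341, and it was called there by DESeq2. At day 3 Spi1 had 37.1, 8.14 and 13.1 CPM, highest in replicate 1, as for Ctsb, Ctsz and Lgmn.

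**Figure D5:**
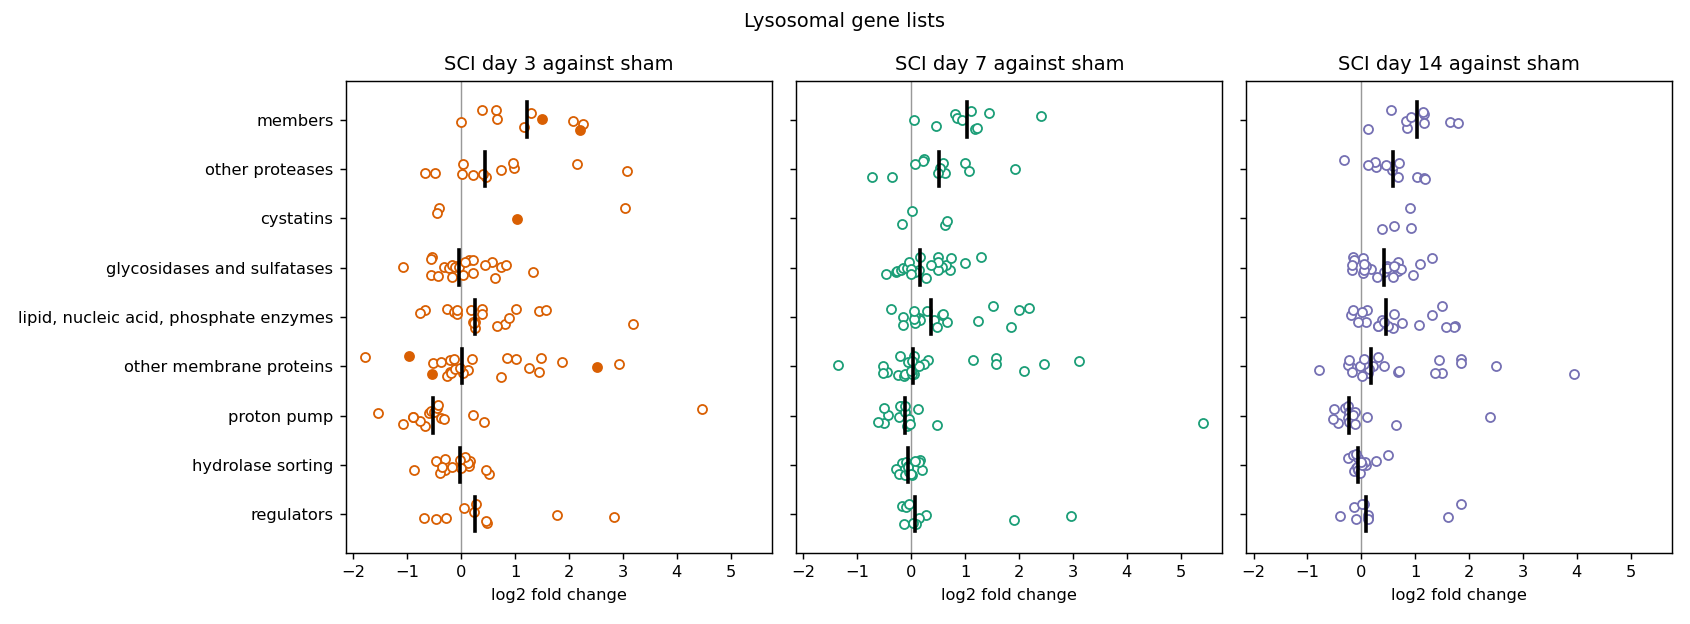
Fitted log2 fold change against sham (horizontal axis) of each gene (points, moved up and down at random within a row) in the 10 members and in other lysosomal gene lists, at days 3, 7 and 14; black bars are list medians and filled points have an edgeR adjusted p under 0.05. The members' medians are 1.23, 1.03 and 1.04 and those of the proton pump -0.53, -0.12 and -0.23; Kng1 and Cst12, with no count in sham, and the cystatin medians are not drawn.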

How the data were processed

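Lumbar cord RNA was sequenced by the authors from libraries made with a SMARTER mRNA-Seq kit, per the labels' protocols. The deposited table gives raw read counts and FPKM per gene and library. Aligner and counter: not given in the sources used here. The submitters' processing notes name only mouse builds (GRCm38 and mm10), although the table's gene identifiers are rat, so coordinates of the table were not printed. Deposited FPKM was proportional to the counts within 0.913% over 9502 genes with over 500 counts in every library.

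Counts were analysed with R 4.3.3 and edgeR 4.0.16: filterByExpr with a minimum count of 10 kept 18714 genes and removed 4812, with TMM scaling (factors 0.956 to 1.04), 1 quasi-likelihood fit over 12 libraries with 8 residual degrees of freedom, and Benjamini-Hochberg adjustment over all tested genes at 0.05. The SE was taken as the absolute log2 fold change over the root of F, and 95% intervals use the t distribution with the fit's degrees of freedom. The common biological coefficient of variation was 0.432. Libraries of a group differed by far more than sampling noise (smallest chi-square per gene 54.5). CPM used library totals without TMM. DESeq2 1.42.0, limma 3.58.1 voom with sample weights, other scalings and filters, a replicate block and fits without each library were alternatives, and the pipeline was tested on simulated data.

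All 10 members were named throughout. Of each other list, up to 3 genes with the smallest p among those called on a day were named, or else the 1 with the smallest p over the 3 days; Acp5 was named as the gene most like Ctsk, and Tfeb, Cst3 and Tcirg1 were chosen after their values were seen. The members and lists were chosen with earlier results of these data known. For Cd63, 1 of the nearest genes is not reported here. Counts of list genes called by DESeq2 and limma, and the alternatives for named genes of the lists, were added after seeing the data.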

Additional observations from a re-analysis of the deposited data

How the results depend on the processing

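The counts of calls depended on the tool and on single libraries. Counts are of genes with an adjusted p under 0.05, for all genes and then for the 10 members. At day 3 against sham edgeR as reported gave 1254 genes and 2 members (Ctsb and Cd63). DESeq2 gave 5058 genes and 5 members (Ctsb, Ctsz, Ctsk, Lamp2 and Cd63), limma voom with sample weights 6232 genes and the same 5 members, DESeq2 size factors in edgeR 1066 genes and 1 member, no filter on low counts 733 genes and 1 member, and the fit on the compared groups alone 1 gene and 0 members. Without the 3 libraries with ganglion transcripts, an alternative chosen after seeing the data, it was 6787 genes and 6 members, and without the 2 libraries with few neuronal transcripts, also chosen after seeing the data, 1 gene and 0 members. At day 7 against sham DESeq2 gave 507 genes and 2 members, limma 276 genes and 2 members, the compared groups alone 89 genes and 2 members, and the fit without the ganglion libraries 8 genes. At day 14 against sham DESeq2 gave 204 genes, limma 9, the compared groups alone 0, and the fit without the 2 libraries with few neuronal transcripts 1. At day 7 against day 3 DESeq2 gave 245 genes, limma 1 and the fit without the ganglion libraries 3222, at day 14 against day 3 DESeq2 gave 1013 and the fit without the ganglion libraries 2088, and at day 14 against day 7 DESeq2 gave 50. For the mean of the SCI days DESeq2 gave 1472 genes and 3 members, limma 5716 genes and 8 members, and the fit without the ganglion libraries 2409 genes and 5 members. The fit on compared groups alone was not run for that mean, which uses all groups. The fit without the ganglion libraries has 1 library at day 14 and, at day 3, only the 2 with few neuronal transcripts. The cause of these differences was not tested.

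The labels do not say whether replicate numbers pair the samples. After removal of group means, same-numbered libraries of different groups had correlations of -0.51 to 0.46, with 7 of 18 pairs over 0.1. Differently numbered libraries had correlations of -0.45 to 0.59, much the same range, so these values cannot decide whether the samples were paired. With the replicate number as a block 8 genes and 0 members were called at day 3, 1 gene at day 7, 1 at day 14, 1 at day 7 against day 3 and 5 for the mean of the SCI days.

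Leaving out each library in turn gave 1 to 7087 genes and 0 to 6 members at day 3, where the 6 came without day 3 replicate 2. It gave 1 to 7 genes at day 7, 1 to 3 at day 14, 0 to 3605 genes and 0 to 1 members at day 7 against day 3, 0 to 4342 genes and 0 to 1 members at day 14 against day 3, and 1 to 3341 genes and 0 to 4 members for the mean of the SCI days.

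No log2 difference that changed sign passed the test under the setting that changed it; these values follow. At day 3 Lamp1 was -0.021 by DESeq2, -0.021 with its size factors, -0.011 with no filter, -0.016 with the filter of 1 CPM and -0.25 without the 2 libraries with few neuronal transcripts, where Ctss was -0.22, Tfeb -0.060 and Lamp1 for the mean of the SCI days was -0.024. At day 7 against day 3 that fit gave 0.73 for Ctsb, 0.81 for Ctsl, 0.90 for Lgmn, 0.30 for Lamp2 and 0.086 for Cd63, and at day 14 against day 3 it gave 0.46 for Ctsb, 0.81 for Ctsl, 0.61 for Ctsz, 0.55 for Lgmn and 0.39 for Lamp2. Without the ganglion libraries, Ctsd was -0.012, Ctsz -0.16 and Lamp1 -0.033 at day 7 against day 3, Lamp1 was -0.018 at day 14 against day 3, and Lamp2 was -0.034 at day 14 against day 7. In that last comparison Lamp2 was -0.00038 by limma and Ctsl 0.013 with the block. Leaving out 1 library gave ranges of -0.25 to 0.63 for Ctss and -0.075 to 0.11 for Lamp1 at day 3, where Tfeb ran from -0.040 to 0.23, and -0.13 to 1.48 for Ctsk and -0.0090 to 0.14 for Lamp1 at day 7. At day 7 against day 3 they were -0.34 to 0.45 for Ctsb, -0.11 to 0.61 for Ctsd, -0.66 to 0.26 for Ctsl, -0.19 to 1.05 for Ctsz, -0.44 to 0.82 for Lgmn and -0.056 to 0.13 for Lamp1. At day 14 against day 3 they were -0.65 to 0.18 for Ctsb, -0.74 to 0.25 for Ctsl, -1.09 to 0.43 for Ctsz, -0.80 to 0.47 for Lgmn and -0.32 to 0.041 for Lamp2. At day 14 against day 7 they were -0.15 to 0.71 for Ctsd, -0.48 to 0.35 for Ctsl, -0.21 to 1.28 for Ctsk, -0.063 to 0.15 for Lamp1 and -0.16 to 0.24 for Lamp2. Of the values of single members under these and the level alternatives, 1460 were labelled unchanged. These include 40 levels scaled by TMM and 17 shares from counts, which have no threshold and moved by less than the SD between libraries. The rest of the 1460 are differences that kept direction and side of the threshold. Of the differences, 43 passed it newly, 25 no longer passed and 59 changed sign. Shares of the protease sum taken from counts in place of FPKM moved by more than the spread between libraries in 11 of 28 cases. Without the 2 libraries with few neuronal transcripts day 3 has 1 library, assumed to vary like the other groups. Without the ganglion libraries day 14 has 1 library, under the same assumption, and day 3 only the 2 with few neuronal transcripts. Depth was ample for every member, and 3 libraries a group limit the tests.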
